A study of Mus musculus with 4 samples.

Results

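Genes that move salt and acid across the colon epithelium were followed by single-cell RNA sequencing. They are Slc26a3, Slc9a2, Slc9a3, Scnn1a, Scnn1b, Scnn1g, Atp12a, Slc12a2, Cftr and Best2. These 10 were chosen by name from the 55450 genes in the count tables by their known function, with no threshold on a measured value, though earlier results of these data were known. Each symbol matched 1 row. The tissue was the mid-colon of 7-week-old mice raised free of specific pathogens. Control mice drank clean water, and DSS mice drank 3% dextran sulfate sodium, a polymer that injures the colon epithelium, for 2 days. No other agent, allele or strain is given in the labels. Each group had 2 libraries, numbered 1 and 2 as in the labels. Whether the libraries of 1 group came from separate animals is not stated there, so a p-value reflects only how far these libraries differ, and part of that spread may be technical.

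The colon surface absorbs sodium and chloride mostly by paired exchangers in the apical membrane, where a sodium-hydrogen exchanger works beside a chloride-bicarbonate exchanger. The epithelial sodium channel, made of an alpha, a beta and a gamma subunit, adds sodium uptake that aldosterone controls. Fluid secretion is a task of crypt cells, in which a basolateral cotransporter loads chloride that leaves through an apical chloride channel. Loss of the chloride-bicarbonate exchanger causes chloride-losing diarrhoea, and salt loss is part of the diarrhoea of colitis.

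After filtering, 42448 cells remained, between 9039 and 11591 per library, with median counts between 4731 and 6297.5 unique molecular identifiers (UMIs) per cell. A total of 259 cell barcodes occurred in more than 1 library. The absorptive lineage (all epithelial clusters other than goblet, enteroendocrine and tuft cells) held 3954 and 5274 cells in control 1 and 2, and 948 and 3208 cells in DSS 1 and 2. Each of its cells was placed on a crypt-to-surface score from 16 surface and 27 crypt genes, none of them a gene under study. Cuts at the tertiles of the control cells, with both control libraries weighted equally, gave a lower, a middle and an upper zone. The zones are ranges of a score and not cell types, and 2.44% and 20.03% of the cells lay within 0.1 SD of the score from the lower and the upper cut. Levels are given as CPM, a gene's UMIs scaled to the same total of UMIs in every set of cells. The score's ends carried their defining genes in control cells, with the stem cell gene Lgr5 at 23.5 and 49.2 CPM in the lower zone and the surface water channel Aqp8 at 2423 and 1921 CPM in the upper zone. Lgr5 had 0 UMIs in the lower zone of both DSS libraries, which allows up to 0.362 CPM in DSS 1 and 0.208 CPM in DSS 2. The numbers of lower, middle and upper cells were 2060, 1276 and 618 in control 1 and 768, 1814 and 2692 in control 2. They were 377, 484 and 87 in DSS 1 and 696, 1804 and 708 in DSS 2. The lower-zone shares of the DSS libraries (39.8% and 21.7%) thus lay between those of control 1 (52.1%) and control 2 (14.6%). Depth and cell quality moved with treatment. Median UMIs per upper-zone cell were 5539 and 8400.5 in the controls and 13357 and 11063.5 in the DSS libraries, and per lower-zone cell 15630, 15354, 21027 and 17434.5, so both DSS libraries lay above both controls in each. The limit of 25% mitochondrial UMIs removed 14.0% and 17.4% of the control barcodes and 5.16% and 6.42% of the DSS barcodes. The part of depth in the differences between groups was not tested, and results under a 10% mitochondrial limit are given where a call changed. Under that limit the score and its cuts were set anew on the cells that remained. A small cluster of 51 cells, led by small intestinal genes such as Fabp6 and Sis, came from control 2 alone. Results were recomputed without it.

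Promoter sequence was read for 3 genes that carry the contrast described next, 2 absorptive exchangers and 1 secretory channel. The RefSeq table of GRCm38.p6 matched 5 of the 10 genes (Slc26a3, Slc9a3, Cftr, Scnn1b and Scnn1g), and each window runs from 250 bases before the start to 50 after it. The 5 letter strings searched on both strands are in capitals. They are TATAAA (the core promoter box), GTTAAT (core of the site of the gut factor HNF1), CTTTGA (core of the Wnt effector TCF/LEF), GGGCGG (the box of Sp1-like factors) and AGAACA (core of the steroid receptor site). All 3 windows lie on the plus strand, Slc26a3 at chr12:31437969-31438268, Slc9a3 at chr13:74121163-74121462 and Cftr at chr6:18170437-18170736.
Slc26a3: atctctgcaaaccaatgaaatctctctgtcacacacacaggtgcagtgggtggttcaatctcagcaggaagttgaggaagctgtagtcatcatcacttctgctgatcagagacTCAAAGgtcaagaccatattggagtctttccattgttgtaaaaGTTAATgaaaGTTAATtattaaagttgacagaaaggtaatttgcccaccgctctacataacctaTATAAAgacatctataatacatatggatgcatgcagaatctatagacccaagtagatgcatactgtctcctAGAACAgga
Slc9a3: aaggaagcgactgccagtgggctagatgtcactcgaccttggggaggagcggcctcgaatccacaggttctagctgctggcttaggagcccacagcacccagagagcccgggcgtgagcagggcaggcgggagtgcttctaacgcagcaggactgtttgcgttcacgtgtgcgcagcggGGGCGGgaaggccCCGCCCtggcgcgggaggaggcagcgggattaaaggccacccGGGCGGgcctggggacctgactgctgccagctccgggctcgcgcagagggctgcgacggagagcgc
Cftr: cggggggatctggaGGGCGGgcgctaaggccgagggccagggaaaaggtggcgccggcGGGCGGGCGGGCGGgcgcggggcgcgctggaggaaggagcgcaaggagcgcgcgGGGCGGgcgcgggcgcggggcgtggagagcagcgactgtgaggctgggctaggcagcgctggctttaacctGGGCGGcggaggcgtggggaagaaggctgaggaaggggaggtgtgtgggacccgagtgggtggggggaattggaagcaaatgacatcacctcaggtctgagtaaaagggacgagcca

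The windows of the 2 exchangers differed in composition. The Slc26a3 window had 39.3% G and C, 1 TATA box, 2 HNF1 cores, 1 TCF/LEF core and 1 steroid receptor core, with no GGGCGG box (GC box). The Slc9a3 window had 68.7% G and C and 3 GC boxes, and the Cftr window had 71.3% and 6 GC boxes, some of which overlap. Neither held any of the other 4 strings. Among 32851 promoter windows of the same length, 13.6% held the TATA string, 7.1% the HNF1 core, 16% the TCF/LEF core, 35.7% the GC box and 19% the steroid receptor core, and the median window had 52.7% G and C. The Scnn1b and Scnn1g windows held 1 and 2 GC boxes and none of the other strings. These are matches of letters and not measured binding sites. The Slc26a3 window lies inside the span that GENCODE M21 gives the gene on GRCm38 (chr12:31390871-31473917), because the 2 annotations start it at different places.

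Slc26a3, the apical chloride-bicarbonate exchanger (also known as DRA), was low in the crypt and high at the surface in every library. In control 1, control 2, DSS 1 and DSS 2 its lower-zone levels were 61.2, 100.5, 180.3 and 236 CPM. The middle-zone levels were 1009, 1429, 851 and 937 CPM in the same order. In the upper zone they were 1554, 1706, 1269 and 1422 CPM. Both DSS libraries lay above both controls in the lower zone and below both in the other zones. Non-epithelial cells, which should lack the gene, held it at 40.8, 116, 24.2 and 62.1 CPM. The lower-zone levels of the controls were thus near this background, and those of the DSS libraries were above it. Free RNA can give such a background in droplet data, but the source of this background was not tested. After each cell was thinned to 2000 UMIs, 8.52% and 11.9% of lower-zone control cells and 25% and 33.7% of lower-zone DSS cells had a Slc26a3 UMI. The shares in non-epithelial cells, whose median depth before thinning was 3493, 3653, 5219 and 3698 UMIs, were 4.72%, 11.6%, 2.44% and 5.37%.

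Slc9a2 and Slc9a3 encode the apical sodium-hydrogen exchangers NHE2 and NHE3, which pair with Slc26a3 to take up salt. Slc9a2 had lower-zone levels of 26.7, 42.1, 64.4 and 54.5 CPM and upper-zone levels of 347, 429, 274 and 256 CPM. Slc9a3 had lower-zone levels of 7.18, 46.0, 19.2 and 27.8 CPM and upper-zone levels of 589, 890.3, 578 and 654 CPM. Slc9a2 showed the same order of groups as Slc26a3, whereas for Slc9a3 the groups overlapped at both ends. The lower-zone values of Slc9a3 were at or below those of non-epithelial cells (16.03, 76.3, 11.6 and 30.9 CPM) in 3 libraries and above them in DSS 1. Those of Slc9a2 were above its non-epithelial values (11.1, 32.4, 6.13 and 12.1 CPM) in all 4 libraries.

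Scnn1a, the alpha subunit of the epithelial sodium channel, followed the surface pattern, and the other 2 subunits did not. Its lower-zone levels of 11.05, 15.4, 31.1 and 18.5 CPM stood beside 8.08, 14.99, 3.88 and 6.16 CPM in non-epithelial cells, and its upper-zone levels were 159, 163, 138 and 99.4 CPM. Goblet cells, which make mucus, held it at 52.8, 57.6, 69.7 and 62.9 CPM. Scnn1b, the beta subunit, had 0 UMIs among the 40627114 UMIs of the 4105 upper-zone cells, which allows a level of up to 0.0738 CPM over the 4 libraries together. Goblet cells held 68, 26, 25 and 43 Scnn1b UMIs, or 2.80, 2.95, 2.85 and 4.43 CPM, and between 75.8% and 94.4% of each library's Scnn1b UMIs. Scnn1g, the gamma subunit, was nearly absent, with 1 UMI in the whole absorptive lineage, in a middle-zone cell of DSS 1, and 8 UMIs in goblet cells, 6 of them in DSS 1. Whether the channel's other subunits are made below this limit was not detectable at this depth.

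Atp12a, the catalytic subunit of the colonic hydrogen-potassium pump that trades potassium uptake for acid, was a surface gene whose level differed most between libraries. Its upper-zone levels were 21.8, 93.6, 358 and 286 CPM, and its middle-zone levels were 13.7, 43.2, 154 and 81.3 CPM. Both DSS libraries lay above both controls in each zone. In the lower zone its levels of 0.320, 2.38, 17.7 and 8.88 CPM stood beside 1.16, 6.52, 6.81 and 10.7 CPM in non-epithelial cells, so only DSS 1 was above this background there.

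**Figure D1:**
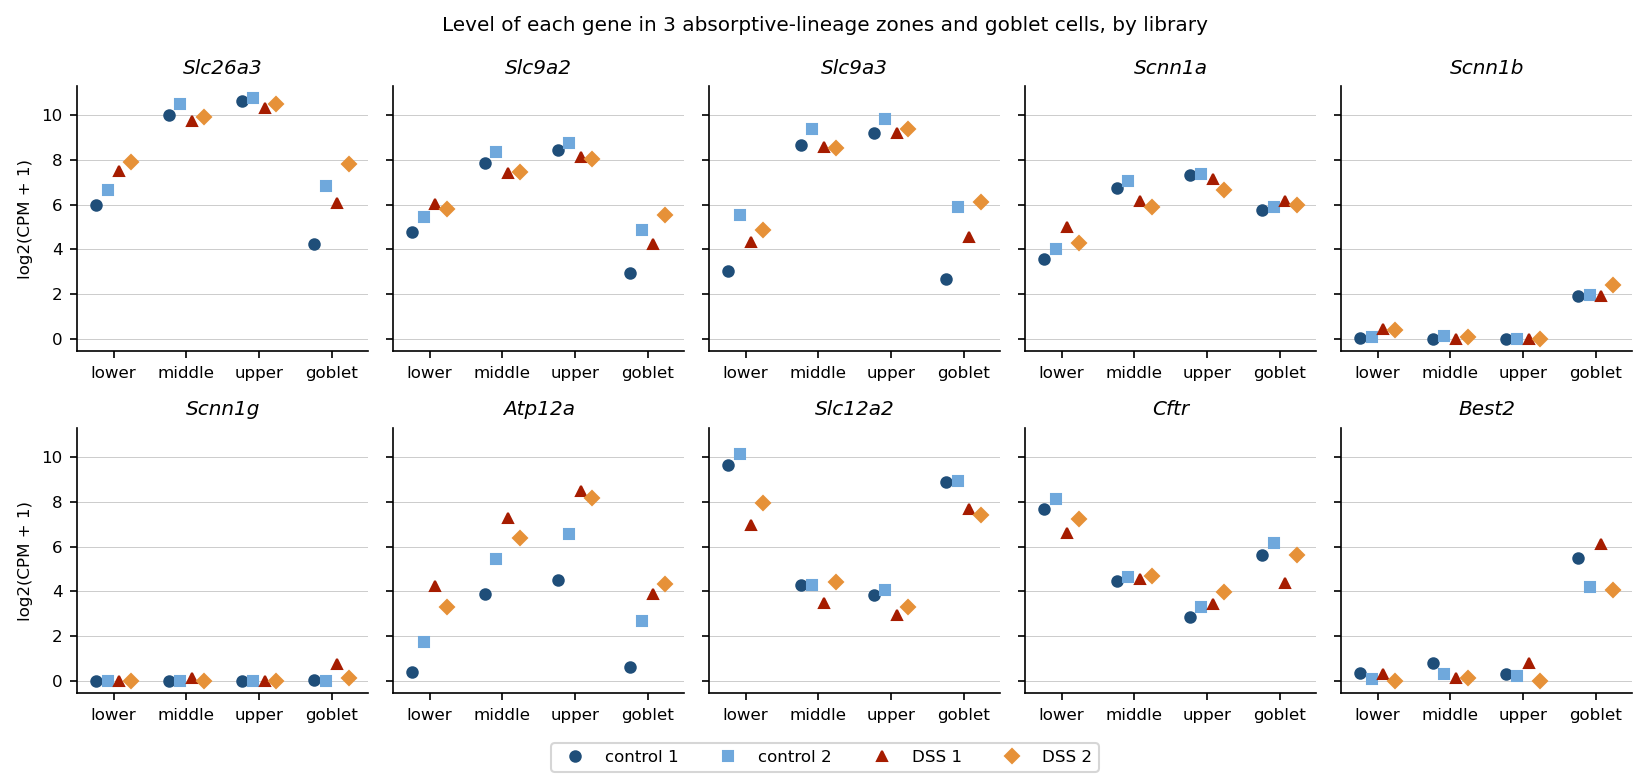
Level of each of the 10 genes as log2(CPM + 1) in the lower, middle and upper zone of the absorptive lineage and in goblet cells, 1 point per library. The 5 surface genes climb from lower to upper zone, Slc12a2 and Cftr fall, Scnn1b and Best2 stand above 0 almost only in goblet cells, and Atp12a is higher in both DSS libraries than in both controls in every set.

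Slc12a2, the basolateral sodium-potassium-chloride cotransporter NKCC1 that feeds chloride secretion, had the opposite pattern. Its lower-zone levels were 779 and 1121 CPM in the controls and 125 and 243 CPM in the DSS libraries. Its middle-zone levels were 18.7, 18.6, 10.1 and 20.3 CPM, and its upper-zone levels were 13.3, 15.6, 6.75 and 8.79 CPM. All libraries were thus highest in the lower zone, with both DSS libraries far below both controls there. The share of thinned lower-zone cells with a Slc12a2 UMI was 68.0% and 76.3% in the controls and 19.2% and 34.5% in the DSS libraries. In fibroblasts, with a median depth of 3496, 4914, 4339 and 3865.5 UMIs before thinning, the share was 7.87%, 8.45%, 5.46% and 9.94%. Goblet cells held it at 464, 476, 202 and 166 CPM.

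Cftr, the apical chloride and bicarbonate channel of secreting cells, was also highest in the lower zone, at 204, 276, 96.8 and 150.2 CPM. Its upper-zone levels were 6.30, 8.86, 9.75 and 14.6 CPM. Both DSS libraries were below both controls in the lower zone and above both in the upper zone. Of the thinned lower-zone cells, 23.5% and 33.5% held UMIs of both Slc12a2 and Cftr in the controls and 6.04% and 10.53% in the DSS libraries. The share of cells with each gene, taken by itself, was also lower in both DSS libraries, so the lower joint share is not a separate result. Non-epithelial cells had a Cftr UMI in 1.05%, 1.11%, 0.246% and 0.338% of thinned cells, against 32.6%, 42.3%, 15.9% and 25.8% of lower-zone cells. Best2, a calcium-activated anion channel linked to bicarbonate secretion by goblet cells, was at most 0.773 CPM in any zone, while goblet cells held it at 44.0, 17.4, 69.2 and 15.8 CPM. Between 91.1% and 96.9% of each library's Best2 UMIs lay in goblet cells, and the libraries' levels did not sort by group.

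Slc26a3 climbed over a narrow stretch when the axis was cut into 10 bins of control cells, bin 1 being the crypt end. In control 1 it was at 67.1 CPM in bin 3, 535 CPM in bin 4 and 1084 CPM in bin 5. In DSS 2, the DSS library with at least 30 cells in every bin, the same bins held 202, 569 and 949 CPM. Control 2 held 197, 834 and 1323.5 CPM there, and DSS 1 held 122, 430 and 1018 CPM. The groups thus overlapped in bins 3 and 4, and both DSS libraries lay below both controls in bin 5. Slc12a2 fell over the same bins, from 525 CPM in bin 3 to 34.2 CPM in bin 4 and 16.7 CPM in bin 5 of control 1. In DSS 2 its plateau at the crypt end was 262 and 312 CPM in bins 1 and 2, against 955 and 1085 CPM in control 1 and 1293 and 1291 CPM in control 2. DSS 1 had 11 and 9 cells in these bins and no value. In bin 3 Slc12a2 was at 525, 741, 218 and 309.9 CPM in control 1, control 2, DSS 1 and DSS 2. Atp12a kept climbing to the last bin of DSS 2, where it reached 432 CPM, against 22.8 and 96.7 CPM in the last bin of the controls. The rise of the absorptive genes and the fall of the secretory genes thus met between bins 3 and 5 in these libraries.

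**Figure D2:**
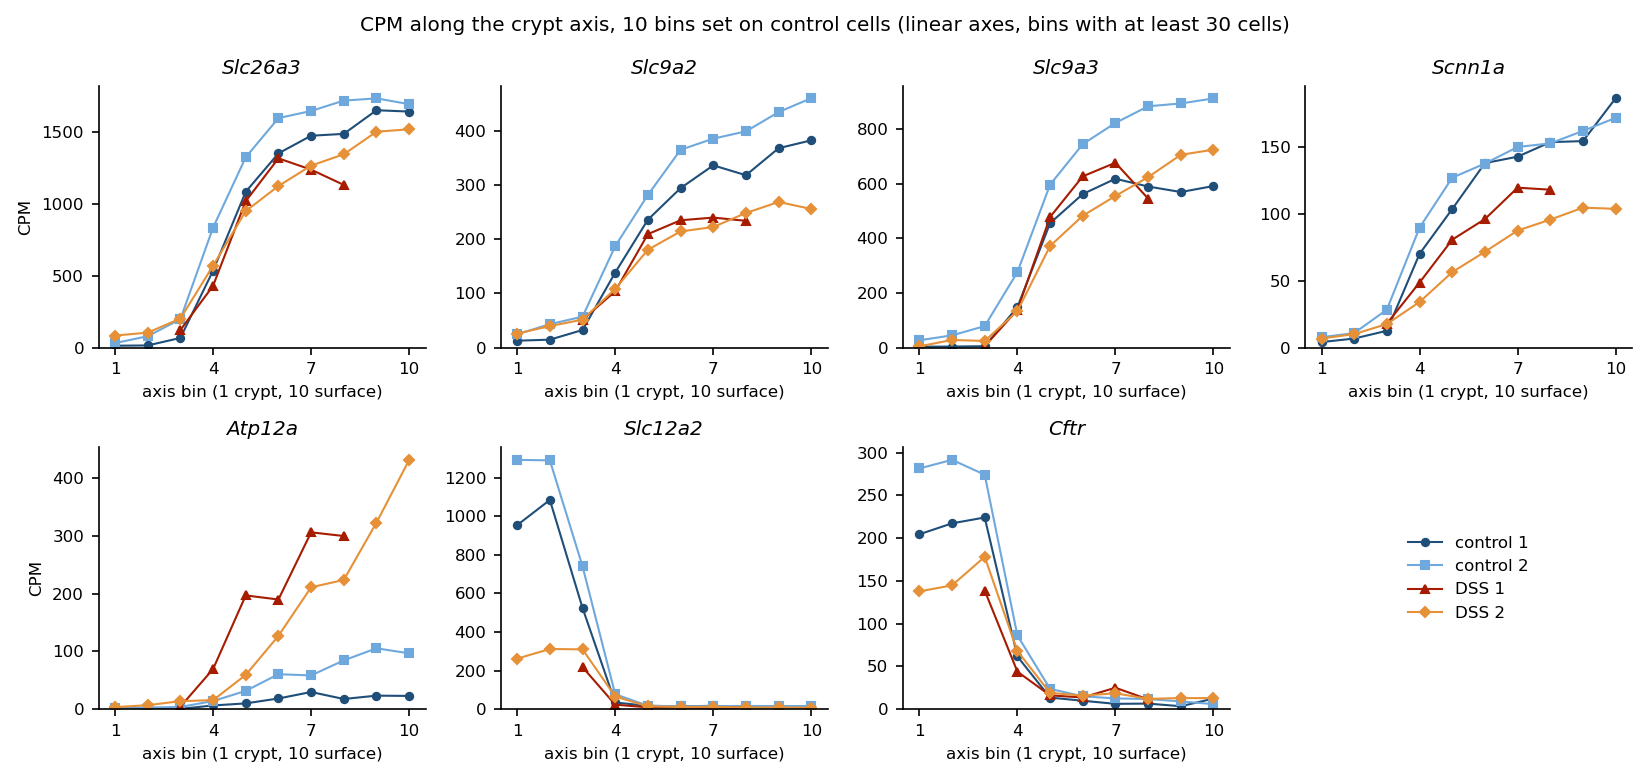
CPM of 7 genes in 10 bins of the crypt axis (bin 1 crypt, bin 10 surface; linear axes from 0), 1 line per library, drawn for bins with at least 30 cells, which leaves bins 3 to 8 in DSS 1. Slc26a3 rises and Slc12a2 and Cftr drop between bins 3 and 5, and the crypt plateau of Slc12a2 in bins 1 and 2 is lower in DSS 2 than in both controls.

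The contrast between upper and lower zone was tested on summed UMIs with edgeR's quasi-likelihood test, with libraries as blocks and Benjamini-Hochberg adjustment over all 14638 genes. In controls all 7 testable genes differed between the zones, where 71.6% of all genes tested did. Higher in the upper zone were 5 of the 7, beside 34.1% of all genes, and lower were 2, beside 37.4%, so a call alone sets the 7 apart little. Scnn1b, Scnn1g and Best2 did not pass the filter on low counts. Slc26a3 was higher in the upper zone by 5.15 ± 0.20 (log2, SE, adjusted p = 2.23e-11), Slc9a2 by 4.29 ± 0.17, Slc9a3 by 5.98 ± 0.37, Scnn1a by 4.39 ± 0.17 and Atp12a by 6.36 ± 0.27. Slc12a2 was at -5.24 ± 0.18 and Cftr at -4.16 ± 0.17. All 7 also differed in the DSS libraries, where 52.1% of genes did (25.6% higher and 26.5% lower), in the same directions. There the values were 3.32 ± 0.18 for Slc26a3, 2.78 ± 0.16 for Slc9a2, 5.33 ± 0.36 for Slc9a3, 2.90 ± 0.17 for Scnn1a, 5.30 ± 0.22 for Atp12a, -4.04 ± 0.21 for Slc12a2 and -2.66 ± 0.18 for Cftr.

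The contrast itself was smaller in DSS for 5 of the 7 genes by the test of the difference, which 13.2% of all genes passed. It changed downward for 3 genes, beside 8.36% of all genes, and upward for 2, beside 4.79%. It changed by -1.83 ± 0.24 (log2, SE) for Slc26a3 (edgeR adjusted p = 0.00037), by -1.52 ± 0.22 for Slc9a2 (adjusted p = 0.000654) and by -1.49 ± 0.23 for Scnn1a (adjusted p = 0.000985). For the secretory genes, whose contrast is negative, it changed by 1.5 ± 0.24 for Cftr (adjusted p = 0.00133) and 1.20 ± 0.27 for Slc12a2 (adjusted p = 0.00888). Atp12a at -1.06 ± 0.35 (adjusted p = 0.0587) and Slc9a3 at -0.64 ± 0.44 (adjusted p = 0.384) did not pass. The lower zones of the groups did not cover the axis alike. Bins 1 and 2 held 568 and 635 of the 2060 lower-zone cells of control 1, and 297 and 207 of 768 in control 2. They held 11 and 9 of 377 in DSS 1 and 34 and 61 of 696 in DSS 2. The part of this difference in position in the change of the contrast was not tested. Without DSS 2, Cftr (adjusted p = 0.105) and Slc12a2 (adjusted p = 0.117) no longer passed, and with a mitochondrial limit of 10% Scnn1a did not (adjusted p = 0.103).

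**Figure D3:**
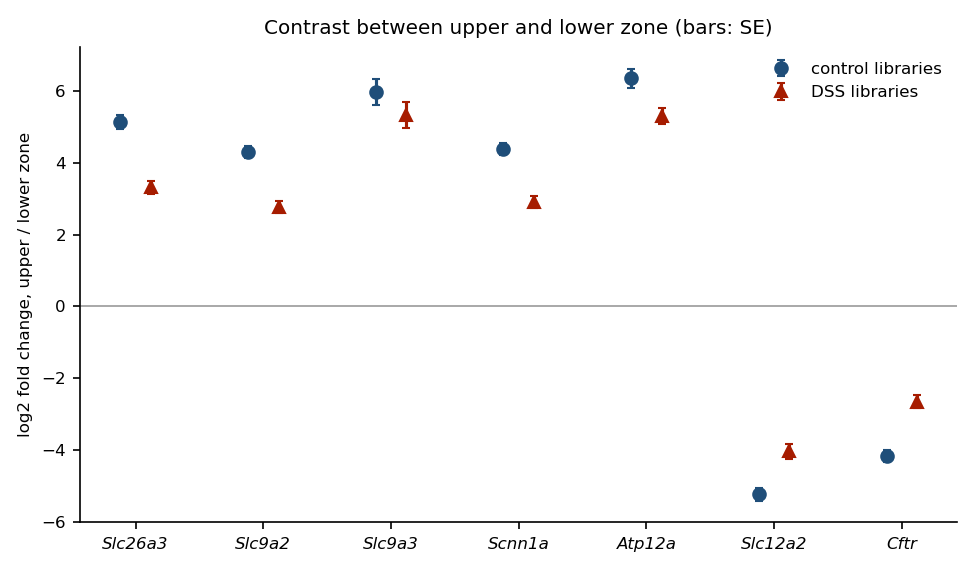
Log2 fold change between the upper and the lower zone for the 7 testable genes, in control (circles) and DSS libraries (triangles), with bars of 1 SE. Every DSS value lies nearer to 0 than its control value, from 5.15 to 3.32 for Slc26a3 and from -5.24 to -4.04 for Slc12a2.

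Slc26a3 and Slc12a2 differed between DSS and control in the lower zone, where 2.26% of 13915 genes did (0.668% rose and 1.6% fell). Slc26a3 rose by 1.5 ± 0.27 (log2, SE, adjusted p = 0.0419, edgeR), from 80.8 ± 27.8 to 208 ± 39.6 CPM (SD, n = 2 libraries each). Slc12a2 fell by 2.26 on the log2 scale with an SE of 0.36 (adjusted p = 0.0308, edgeR), from 950.1 ± 242 to 184 ± 83.4 CPM (SD, n = 2). Atp12a was at 3.70 ± 0.79 (adjusted p = 0.0586), Slc9a2 at 0.94 ± 0.25 (adjusted p = 0.0908), Scnn1a at 1.06 ± 0.33 (adjusted p = 0.129), Cftr at -0.84 ± 0.27 (adjusted p = 0.139) and Slc9a3 at 0.03 ± 0.66 (adjusted p = 0.985), and none of these passed. The groups did not overlap for 6 of the 7 tested genes, all but Slc9a3, which held for 51.2% of all genes. DSS was the higher group for 4 of them, beside 19.3% of all genes, and the lower for Slc12a2 and Cftr, beside 31.9%. The Slc26a3 call was lost with doublets kept (edgeR adjusted p = 0.0700) and with the 10% mitochondrial limit (edgeR adjusted p = 0.151). Under that limit the lower zone held 22 cells in DSS 1 and 100 in DSS 2. The Slc26a3 call was also lost without control 1, and the Slc12a2 call without DSS 1.

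The makeup of the lower zone moved with these changes. At a finer clustering, a cluster led by Clca3b held 1331 and 463 lower-zone cells of control 1 and control 2 but 33 and 53 of DSS 1 and DSS 2. A second cluster, called Sult1c2-led here after a gene among its leading genes, held 403 and 88 against 294 and 399. The first of its leading genes was Aqp4. In the Clca3b-led cells Slc12a2 was at 1030.0, 1425, 476 and 301 CPM, and in the Sult1c2-led cells at 166, 451, 82.8 and 256 CPM. Within the Clca3b-led cells Slc12a2 fell by 1.6 on the log2 scale (edgeR adjusted p = 0.0444), while Slc26a3 was at 1.69 (adjusted p = 0.068). Within the Sult1c2-led cells 0 of 12061 genes passed. Slc26a3 there was at 202, 257, 196 and 230.5 CPM, a difference of -0.10 (log2), and Slc12a2 differed by -0.84. The groups thus overlapped for Slc26a3 within the Sult1c2-led cells. These subsets were chosen after the values had been seen. B cell markers summed to 0.872 and 1.15 CPM in the lower zone of controls and 7.61 and 1.94 CPM in DSS, with 4 of 5 higher in both DSS libraries. Goblet markers summed to 1395 and 1918 CPM in controls and 1062 and 1021 CPM in DSS, with 2 of 10 higher in both. Of the T cell, plasma cell and fibroblast markers, 3 of 6, 2 of 6 and 2 of 7 were higher in both. Of those of monocytes or macrophages and of interstitial cells of Cajal, 0 of 9 and 1 of 4 were. The part of other cells' RNA in the result was not tested.

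**Figure D4:**
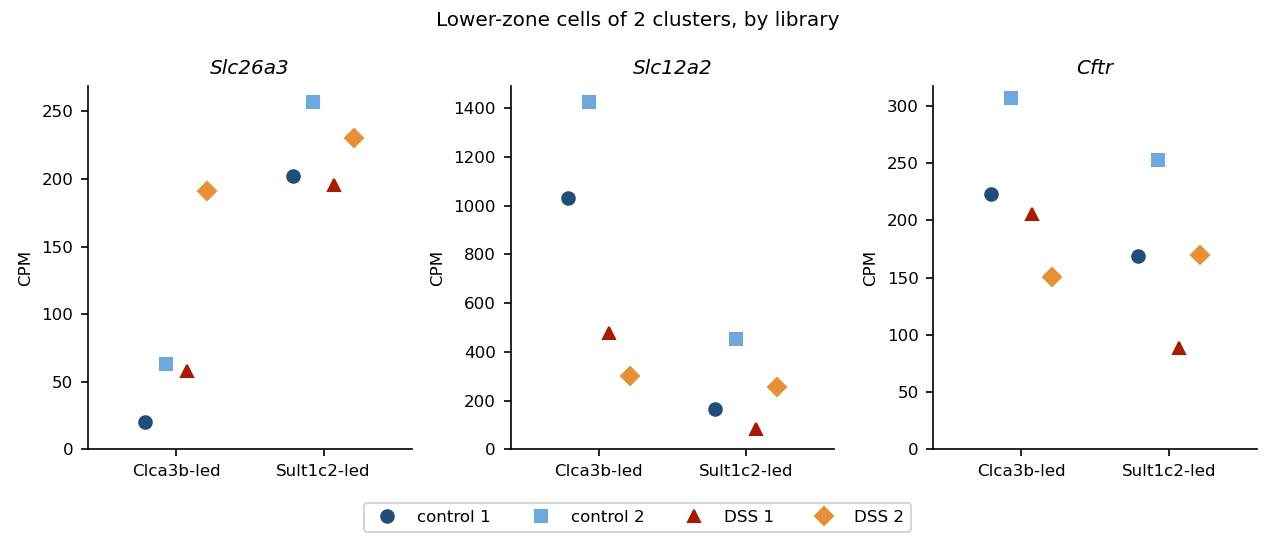
CPM of Slc26a3, Slc12a2 and Cftr in lower-zone cells of the Clca3b-led and the Sult1c2-led cluster, 1 point per library (linear axes from 0). Slc26a3 lies between 196 and 257 CPM in the Sult1c2-led cells of all 4 libraries, and Slc12a2 of the Clca3b-led cells is above 1000 CPM in both controls and below 500 CPM in both DSS libraries.

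None of the 7 tested genes passed in the middle zone, where 0 of 13113 genes (0.0%) passed in edgeR, 1811 had an unadjusted p under 0.05 and DESeq2 called 326. Scnn1a was lowest relative to controls, at 69.6 and 57.5 CPM against 107 and 129.8 CPM, a difference of -0.93 ± 0.20 (log2, SE, edgeR adjusted p = 0.172), and DESeq2 called it (adjusted p = 0.0112). Slc26a3 was at -0.48 ± 0.27, Slc9a2 at -0.71 ± 0.23, Slc9a3 at -0.55 ± 0.29 and Atp12a at 2.00 ± 0.56 (adjusted p = 0.231). Slc12a2 (-0.30 ± 0.33) and Cftr (0.02 ± 0.18) overlapped between groups. The groups did not overlap for the other 5, against 46.0% of all genes, with DSS lower for 4 (21.4% of all genes) and higher for Atp12a (24.7%).

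None of the 7 passed in the upper zone either, where 0.411% of 10473 genes did in edgeR (0.239% higher and 0.172% lower), and DESeq2 called none of the 7. Atp12a went from 57.7 ± 50.8 to 322 ± 51.0 CPM (SD, n = 2), a difference of 2.41 ± 0.57 (log2, SE, edgeR adjusted p = 0.115). With 1 library left out, the Atp12a difference ranged from 1.73 (without control 1) to 3.81 (without control 2). Each such fit left 1 library in a group. The other differences were -0.33 ± 0.28 for Slc26a3, -0.60 ± 0.24 for Slc9a2, -0.31 ± 0.29 for Slc9a3, -0.50 ± 0.25 for Scnn1a, -0.90 ± 0.29 for Slc12a2 and 0.67 ± 0.32 for Cftr, with adjusted p between 0.207 and 0.641. The groups did not overlap for 6 of the 7, all but Slc9a3, against 47.1% of all genes. DSS was lower for 4 (21.3% of all genes) and higher for Atp12a and Cftr (25.7%). The upper zone of DSS 1 rested on 87 cells. The makeup of these zones also differed. A colonocyte cluster led by Reg3b, read below, held 4 of 618 and 213 of 2692 upper-zone cells of control 1 and control 2. It held 27 of 87 and 555 of 708 in DSS 1 and DSS 2. In the middle zone it held 14 of 1276, 170 of 1814, 139 of 484 and 1432 of 1804 in the same order. The part of this makeup in the middle-zone and upper-zone differences was not tested.

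Atp12a was also read within each colonocyte cluster of the clustering at resolution 1. In the Aqp8-led surface colonocytes it was at 39.0, 100.03, 242 and 329 CPM. In a colonocyte cluster led by the antibacterial lectins Reg3b and Reg3g, which held 21, 392, 194 and 2150 cells, it was at 66.6 CPM in control 2 and 262 and 113 CPM in the DSS libraries. In the Aqp4-led colonocytes it was at 4.68, 24.4, 58.0 and 23.7 CPM, where DSS 2 lay below control 2. Atp12a was among the 10 genes that led the Reg3b cluster with all libraries pooled, although it had been left out of the clustering. Most cells of that cluster came from DSS 2. Within libraries, Atp12a was higher in the Aqp8-led cells than in the Reg3b cluster in control 2 and DSS 2, and lower in DSS 1.

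Goblet cells gave 0 of 13136 genes (0.0%) in edgeR and none of the 9 genes tested there, with 1745 genes at an unadjusted p under 0.05 and 412 called by DESeq2. Slc12a2 was at -1.17 ± 0.31 (log2, SE, adjusted p = 0.233) and Atp12a at 2.83 ± 0.82 (adjusted p = 0.247), and DESeq2 called both (adjusted p = 0.0119 and 0.0144). Best2 was at 0.65 ± 0.82, Scnn1b at 0.46 ± 0.37, Scnn1a at 0.44 ± 0.24 and Cftr at -0.66 ± 0.33. Slc26a3 (1.36 ± 0.80), Slc9a2 (1.04 ± 0.61) and Slc9a3 (0.73 ± 0.91) had overlapping groups. The groups did not overlap for 3 of the 9, against 39.8% of all genes, with DSS higher for Scnn1a and Atp12a (12% of all genes) and lower for Slc12a2 (27.9%). Plasma cell markers summed to 418 and 742 CPM in control goblet cells and 2187 and 1087 CPM in DSS goblet cells, with 2 of 6 higher in both DSS libraries. Monocyte or macrophage markers summed to 8.87 and 23.9 against 162 and 30.6 CPM (5 of 9 higher in both), and B cell markers to 1.65 and 2.16 against 23.4 and 4.22 CPM (3 of 5 higher in both). Fibroblast markers summed to 60.1 and 378 against 360.2 and 474 CPM (4 of 7 higher in both), and the groups overlapped. The part of these cells' RNA in the goblet values was not tested.

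**Figure D5:**
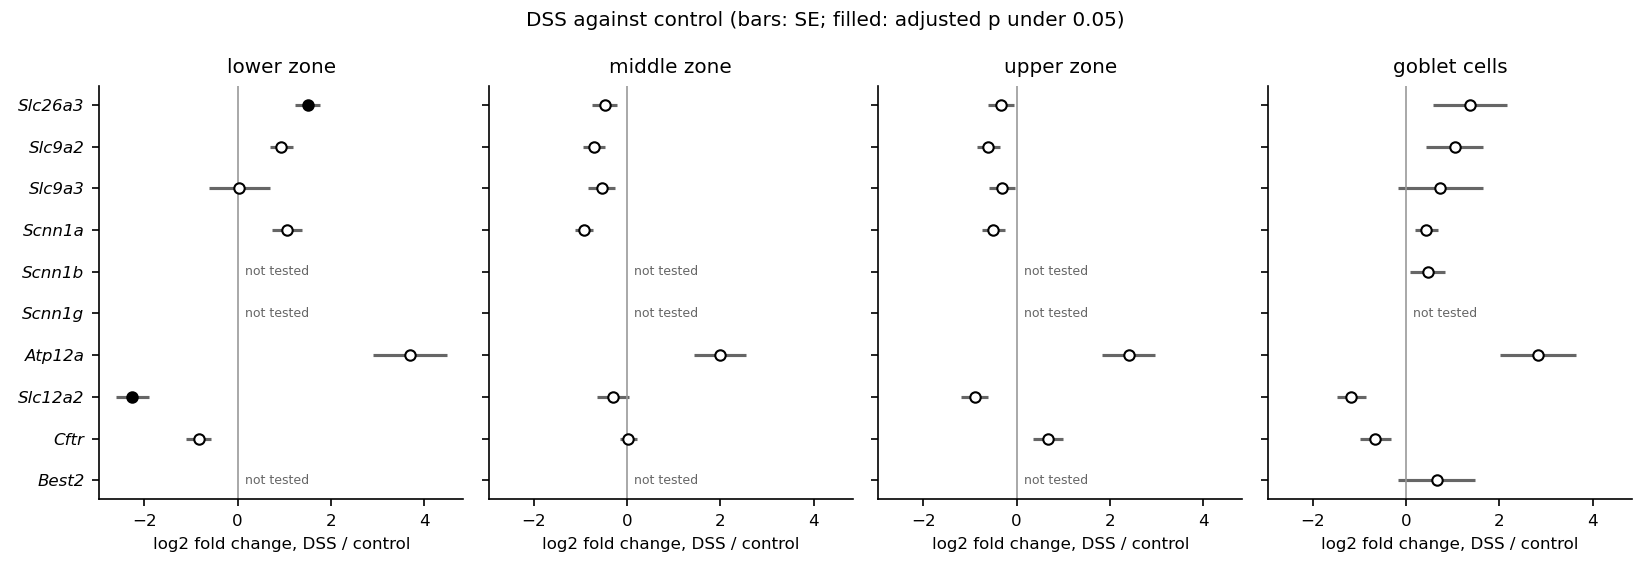
Log2 fold change of DSS against control for the 10 genes in the 3 zones and in goblet cells, with bars of 1 SE and filled points for an adjusted p under 0.05. Only Slc26a3 and Slc12a2 in the lower zone are filled, and Atp12a lies between 2.00 and 3.70 in all 4 sets without passing.

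Partners of salt absorption were read as a list of 16 genes. In the lower zone 1 of 15 tested rose, 1 fell and the median difference was 0.51 (log2), beside -0.0028 for all genes, of which 0.668% rose and 1.6% fell. Slc4a7, a sodium-bicarbonate cotransporter, rose by 1.21 ± 0.22 (log2, SE, edgeR adjusted p = 0.0426). Fxyd3, a regulator of the sodium pump, was at 139.8 and 129 CPM in controls and 26.7 and 20.7 CPM in DSS, a fall of 2.38 (edgeR adjusted p = 0.0149). Goblet cells held Fxyd3 at 730 and 477 CPM in controls and 387 and 309 CPM in DSS. Summed goblet markers were lower in both DSS libraries than in both controls in each zone. The part of goblet RNA in the Fxyd3 values was not tested. None of the list passed in the middle zone, in the upper zone or in goblet cells. The smallest p-values in the middle and the upper zone belonged to Fxyd3 (-1.24 and -1.81) and the phosphate cotransporter Slc34a2 (-2.11 and -2.41), and in goblet cells to Slc5a8 (1.20) and Clcn2 (1.39). Along the axis of controls 8 of 15 were higher in the upper zone and 2 lower, beside 34.1% and 37.4% of all genes, led by Slc34a2 (6.33), Slc9a3r1 (4.04), which encodes a scaffold of NHE3, the chloride channel Clcn2 (3.95) and Slc20a1 (2.50), with Fxyd3 (-3.88) and Atp1b3 (-0.83) lower. The contrast changed in DSS for 6 of 15, all downward, beside 8.36% of all genes in that direction, led by Clcn2 (-1.70), Slc20a1 (-1.67), Slc5a8 (-1.06) and Slc4a7 (-0.99), with a list median of -0.63 beside -0.06 for all genes.

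The aldosterone pathway and regulators of the sodium channel made a list of 14 genes, all tested. None passed between DSS and control in any zone or in goblet cells, with medians of 0.47, -0.25, -0.07 and 0.41 (log2) in the lower, middle and upper zone and goblet cells. The smallest p-values belonged to Nr3c2, the mineralocorticoid receptor, and Fkbp5 in the lower zone (0.90 and 0.96) and in goblet cells (0.94 and 1.23). In the upper zone they belonged to Tsc22d3, a steroid-induced gene, and Nr3c2 (-1.34 and -0.76). Nr3c2 there was at 145 and 148 CPM in controls and 81.0 and 97.5 CPM in DSS. In the middle zone they were Tsc22d3 (-1.18) and Nedd4l (-0.60), a ubiquitin ligase that removes the sodium channel. In controls 10 of the 14 were higher in the upper zone and 2 lower, beside 34.1% and 37.4% of all genes, among them Nr3c2 (2.97), Sgk1 (2.83), Nedd4l (2.78) and Spint1 (2.70), with Prss8 (-2.55) and Nedd4 (-1.76) lower. The contrast changed in DSS for 6, beside 13.2% of all genes, downward for Tsc22d3 (-1.63), Nr3c2 (-1.62), Hsd11b2 (-1.58), Nedd4l (-1.02) and 1 more gene, and upward for Nedd4 (0.91).

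Partners and regulators of secretion made a list of 18 genes. Kcnq1, the basolateral potassium channel that sustains chloride secretion, fell in the lower zone by 1.59 on the log2 scale (SE 0.26, edgeR adjusted p = 0.0308), from 66.0 and 109.6 CPM in controls to 22.0 and 30.8 CPM in DSS, the 1 call among 17 tested, where 1.6% of all genes fell. Ano1, a calcium-activated chloride channel, fell in the upper zone by 3.63 (adjusted p = 0.0136), from 98.7 and 71.2 CPM to 6.75 and 7.32 CPM, the 1 call among 15 tested there, where 0.172% of all genes fell. Ano1 also marks interstitial cells of Cajal, whose other 4 markers summed to 47.0 and 42.8 CPM in the upper zone of controls and 87.0 and 85.5 CPM in DSS, with 1 of the 4 higher in both DSS libraries, and their part in the fall was not tested. Ano1 also had the smallest p of the list in the middle zone (-2.97, adjusted p = 0.115), followed by Kcne3 (0.86), and in goblet cells Kcnq1 (-1.35) and Kcne3 (-0.86) had the smallest p-values without passing. Along the axis of controls 7 of 17 were higher in the upper zone, beside 34.1% of all genes, led by Ano1 (3.21), Kcnk5 (2.41), Ptger4 (2.10) and Slc12a7 (1.28). Lower were 6, beside 37.4%, led by the potassium channel genes Kcne3 (-5.41), Kcnn4 (-5.02) and Kcnq1 (-4.03) and the kinase Stk39 (-2.66), which activates NKCC1. The contrast changed in DSS upward for Kcnq1 (2.24), beside 4.79% of all genes, and downward for 5, beside 8.36%, led by Ano1 (-3.20), Kcnk5 (-1.94), Prkg2 (-1.69) and Vipr1 (-1.05).

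Genes most like each of the 10 across 29 sums of library and epithelial cluster were ranked by Pearson's r of log2(CPM + 1) among 8234 genes, as a description. The sums share libraries and depth. Slc26a3 was closest to 1810065E05Rik (0.978), Chp1 (0.978) and Fa2h (0.972), Slc9a2 to Mep1a (0.983), Ipmk (0.983) and Dpep1 (0.977), and Slc9a3 to Sgk2 (0.983), Tmigd1 (0.981) and Ptprh (0.979). Tmigd1 is 1 of the surface genes that place cells on the axis. Scnn1a was closest to Tspan1 (0.916), Tpcn1 (0.902) and Slc22a23 (0.900), and Atp12a to Ak4 (0.890), Tat (0.889) and Ifit1bl1 (0.885). Slc12a2 was closest to Impdh2 (0.967), Gas5 (0.965) and the crypt claudin Cldn2 (0.965), and Cftr to Oxa1l (0.947), Hspd1 (0.946) and Nsa2 (0.944). Best2 was closest to Capn9 (0.953), Sval1 (0.950) and Tpsg1 (0.944), and Scnn1b to the goblet chemokine Ccl6 (0.900), Clps (0.889) and Tpsg1 (0.886). Scnn1g, with a mean of 0.128 CPM, had Nts (0.822), Ppy (0.759) and Atf6 (0.712), a ranking on almost no UMIs. Among the 10 themselves, Slc26a3 and Slc9a2 had r = 0.95, Slc12a2 and Cftr 0.849, Scnn1b and Best2 0.904, and Slc26a3 and Slc12a2 -0.869.

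On GRCm38 the positions of 8 more of the genes are as follows. They lie at chr1:40680574-40769273 (Slc9a2), chr13:74121457-74169442 (Slc9a3), chr6:125320659-125344943 (Scnn1a), chr14:56365068-56388550 (Atp12a), chr6:18170687-18322768 (Cftr) and chr8:85007202-85014531 (Best2, minus strand). Scnn1g and Scnn1b are neighbours at chr7:121734479-121768475 and chr7:121865038-121918514, 96562 bases apart. Slc9a2, Atp12a and Cftr each overlap an annotated antisense gene, Slc26a3 and Cftr a processed pseudogene, and Scnn1b the gene Cog7 on the other strand. Whether counting used strand is not given in the sources used here, so reads of these pairs may not be separated.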

How the data were processed

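Single cells from 2 control and 2 DSS libraries of mouse mid-colon were read by a droplet 3-prime kit. The labels name version 3 for capture and version 2 for library construction, and a target of 5000 cells, against 10966, 13014, 12778 and 13093 barcodes in the files. The deposited values are whole-number UMI counts per gene and barcode, made with Cell Ranger 6.1.1 on GRCm38 per the submitters' processing notes. The sources used here give no settings for it. Totals per library were 101051573, 101834659, 108941875 and 109472082 UMIs.

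Cells with at least 500 UMIs, 250 genes and at most 25% mitochondrial UMIs were kept (44356 of 49851), and cells that Scrublet marked as doublets (3.03%, 4.69%, 3.85% and 5.38% per library) were left out, leaving 42448. Cells were clustered in scanpy 1.11.5 (2000 variable genes without the 10 genes or the electrolyte lists, 40 components, 20 neighbours, leidenalg 0.10.2, resolution 1, with 2 as the finer clustering), with no batch correction. Clusters were named from at least 3 markers that were at least 2-fold over other cells. The rule for the epithelial compartment was changed after clusters had been seen. Counts were summed per library and set and tested with edgeR 4.0.16 in R 4.3.3 (filterByExpr, TMM, quasi-likelihood, two-sided, Benjamini-Hochberg over all genes, threshold 0.05), with DESeq2 1.42.0 as an alternative. The SE is the absolute log2 fold change over the root of F. Scripts were tested on simulated data. Levels are CPM, floors are 3 UMIs, and floors and intervals cover counting error only. In bulk sums fewer cells of a type and less RNA per cell cannot be told apart.

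Named were the 10 genes, per list and comparison up to 4 called genes in each direction or the 2 of smallest p, and the 3 genes most like each of the 10. Genes, lists and tests were chosen with earlier results of these data known. The alternatives were the test, the low-count filter, doublets, the mitochondrial limit, the axis genes, the clustering, the replicate block and each library left out. The subset without the small intestinal cluster and the Clca3b-led and Sult1c2-led subsets were added after the values had been seen.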

Additional observations from a re-analysis of the deposited data

Results flagged for a closer look

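The contrast between the upper and the lower zone differed between DSS and control libraries, by the test of the difference itself (edgeR's quasi-likelihood test, adjusted over all genes), for 5 genes. In log2 units, DSS minus control, it changed by -1.83 for Slc26a3, -1.52 for Slc9a2, -1.49 for Scnn1a, 1.20 for Slc12a2 and 1.5 for Cftr. Lower-zone cells of the DSS libraries lacked Lgr5 and were mostly in the Sult1c2-led cluster (294 of 377 and 399 of 696), against 403 of 2060 and 88 of 768 in the controls. The part of this difference in makeup in the 5 results was not tested.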

How the results depend on the processing

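Across the alternatives, the 7 genes kept the direction and the call of the upper-lower contrast within each group in every run, while calls between groups depended on the settings. In the lower zone, 315 genes and 2 of the 10 were called. DESeq2 called 1115 genes and 5 of the 10, no filter on low counts 1831 and 5, and the Clca3b-led subset 181 and 1. The Sult1c2-led subset gave 0 and 0. With doublets kept, or with at most 10% mitochondrial UMIs, 1 of the 10 was called. In the middle zone DESeq2 called 326 genes and 1 of the 10, no filter 818 and 2, the axis without Wnt and stem cell genes 6 genes and the axis from surface genes alone 4. In the upper zone DESeq2 called 193 genes, no filter 625 and 1 of the 10, the 10% mitochondrial limit 168 and the axis without Wnt genes 88, against 43. In goblet cells DESeq2 called 412 and 2, and no filter 1175 and 4. The difference of contrasts gave 982 genes with the 10% limit, against 1925. The replicate numbers cannot show pairing with 2 pairs, though deviations of same-numbered libraries correlated at 0.39, 0.35, 0.22 and 0.43 in the lower, middle and upper zone and goblet cells. With the replicate block, 1886 genes and 6 of the 10 were called in the lower zone, 141 genes in the middle zone, 628 genes and 1 of the 10 (Atp12a) in the upper zone, and 248 genes in goblet cells. Leaving out 1 library gave 241 to 1038 genes and 1 to 5 of the 10 in the lower zone, 0 to 216 and 0 to 1 in the middle, 0 to 287 and 0 to 1 in the upper, and 0 to 182 genes in goblet cells. It gave 3803 to 6703 genes for the DSS contrast, the lower without DSS 2, and 872 to 1496 for the difference, the lower again without DSS 2. Where an arm was left with 1 library, that library was assumed to vary like the others.

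Signs turned only in values that had not passed, apart from Slc26a3 in the lower zone within the Sult1c2-led subset (-0.10). In that subset Slc9a2 (-0.22), Scnn1a (-0.18) and Slc9a3 (-0.88) also turned. Slc9a3 in the lower zone was -0.49 with doublets kept, -0.082 with the 10% limit, and -0.74 to 1.71 when 1 library was left out. Cftr in the middle zone was -0.13, -0.66, -0.013 and -0.15 with doublets kept, the 10% limit, no Wnt genes and surface genes alone, and -0.065 to 0.14 when 1 library was left out. With 1 library left out, Slc12a2 in the middle zone ranged from -0.91 to 0.11, Slc9a3 and Best2 in goblet cells from -0.17 to 2.95 and from -1.06 to 1.66, and the Slc9a3 difference of contrasts from -1.67 to 0.15. The causes were not tested. Depth limits Scnn1g, and Scnn1b and Best2 in the zones, where a few UMIs decide the levels.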

Other observations

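Slc12a2 was also expressed outside the epithelium. Cells with the markers of interstitial cells of Cajal, the pacemakers of gut muscle, held it at 1200 CPM in control 1 (221 cells), 1320.0 CPM in DSS 1 (335 cells) and 2257 CPM in DSS 2 (58 cells), and control 2 had 11 such cells and no value. An unnamed stromal cluster led by Kcnn3, Ptn and Fibin held it at 397, 489.8, 535 and 517 CPM in control 1, control 2, DSS 1 and DSS 2. Non-epithelial cells carried 6.66% and 7.35% of all Slc12a2 UMIs in the controls and 69.8% and 33.2% in the DSS libraries. These shares depend on cell numbers, with 3783 and 4487 non-epithelial cells in the controls and 10151 and 7900 in the DSS libraries. The Slc12a2 level of non-epithelial cells was 179 and 73.4 CPM in the controls and 96.9 and 84.3 CPM in the DSS libraries. Both DSS levels thus lay between those of the controls. Tuft cells, which sense the gut content, held Slc12a2 at 436 CPM in control 1 and 72.2 and 181 CPM in the DSS libraries, and control 2 had 28 tuft cells and no value.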
